A study of Mus musculus with 16 samples.

Results

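MicroRNA levels of mucosal-type mast cells (MMC) were set directly against those of mast cells activated through IgE (IgE_BMMC). Both groups were named by the submitters' group labels, which gave 4 MMC arrays and 4 IgE_BMMC arrays, 8 of the 16 arrays of the series. Both started from Balb/c mouse bone marrow cells grown for 4 weeks in 5 ng/ml IL3 and 20 ng/ml SCF, the factors that expand mast cells in culture. The MMC cultures then had IL-9 and TGF-beta added for 5 more days. The IgE_BMMC cultures were loaded with anti-DNP IgE and challenged with DNP antigen for 2 hours. Neither group is untreated, and they differ in culture time as well as in agent, so each difference below is one of MMC from IgE_BMMC and cannot be assigned to either side. The resting cultures entered no step. Each array carried 100 ng of Cy3-labelled total RNA from a sample with an integrity number above 8. The series calls the 4 samples of a group biological replicates. The sources used here do not say whether each came from its own animal or culture, so p-values reflect the spread among these samples, some of which may be technical.

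A microRNA (miRNA) is a short RNA cut from a hairpin precursor. Its seed, bases 2 to 8, pairs with target mRNAs and lowers their translation or stability, so miRNAs with the same seed share targets. A hairpin can give a guide strand and a passenger strand, and many passenger strands carry a star in the names on these arrays. Mast cells are tissue cells that release mediators when antigen crosslinks IgE on their high-affinity receptor, and the mucosal type is known from the gut and airways.

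The sequences shown first are those of the miRNAs on which the comparison turns, taken from RefSeq (build GRCm38.p6) and written 5′ to 3′ with the seed in capitals. Of 173 miRNAs tested, 150 could be matched to a RefSeq entry. The first set holds miRNAs that were lower in MMC or that share a seed with such a miRNA, and its pairs show which of them could reach the same targets:
miR-132: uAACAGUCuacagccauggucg
miR-212: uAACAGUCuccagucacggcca
miR-193b: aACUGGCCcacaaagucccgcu
miR-193: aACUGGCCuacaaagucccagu
miR-146a: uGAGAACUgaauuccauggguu
miR-146b: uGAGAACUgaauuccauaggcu
miR-365: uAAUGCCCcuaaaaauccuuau
miR-223: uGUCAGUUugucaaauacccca
The second set holds miRNAs that were higher in MMC, shown because they share few seeds and because base composition is described further on:
miR-452: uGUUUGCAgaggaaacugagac
miR-370: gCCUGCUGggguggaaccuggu
miR-135a*: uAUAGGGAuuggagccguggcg
miR-494: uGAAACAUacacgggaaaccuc
miR-125a-3p: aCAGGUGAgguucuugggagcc
miR-290-5p: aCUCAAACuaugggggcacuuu
miR-292-5p: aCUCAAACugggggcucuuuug
miR-877: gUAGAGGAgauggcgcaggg
miR-1224: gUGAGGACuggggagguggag
miR-762: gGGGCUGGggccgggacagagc
The third set gives both strands of the miR-21 hairpin, which differed from each other between the groups:
miR-21: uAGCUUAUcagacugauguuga
miR-21*: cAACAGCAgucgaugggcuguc

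The arrays report on 567 mouse miRNAs through 1672 probes. A miRNA counted as detected where the extraction software marked more of the spots of at least 1 of its probes than not as well above background, which held for 143 miRNAs on all 8 arrays, for 195 on at least 1 and left 372 detected on none. MMC arrays showed 178.5 ± 9.26 miRNAs and IgE_BMMC arrays 152.75 ± 4.11 (SD, n = 4 each), a difference of 25.75 (exact two-sided permutation test, p = 0.0286, the smallest that 70 arrangements allow). Brightness differed in the same direction. The 75th percentile of the probes measured on every array was 458 ± 28.7 intensity units on MMC arrays and 232 ± 43.4 on IgE_BMMC arrays, and the bright corner control spots read 794 ± 172 and 403 ± 136 in MMC and IgE_BMMC arrays (SD, n = 4 each). Both ratios came to 1.97, and the part of this brightness in the number of miRNAs above background was not tested. Levels below are scaled intensity, the signal divided by each array's factor from that percentile (1.31 to 1.52 for MMC, 0.525 to 0.823 for IgE_BMMC). Levels between miRNAs are not comparable, because each has its own probe. The floor, below which values were raised before taking logs, was 10.6 units. Both slides held 2 arrays of each group, and a limma test of slide called 0 miRNAs, with 13 at an unadjusted p under 0.05.

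In the limma fit, 59 of the 173 tested miRNAs (34.1%) passed an adjusted p of 0.05. Of these, 35 (20.2% of those tested) were higher in MMC and 24 (13.9%) were lower. The higher calls were larger, with a median size of 1.11 on the log2 scale against 0.45 for the lower calls, and 22 of the higher but 4 of the lower calls reached 2-fold. All 59 had the same sign within each slide, which was fixed in advance for the 55 of them whose groups did not overlap. The groups did not overlap for 65 miRNAs (37.6%), of which 10 were not called. Of the calls, 56 had another detected probe for the same miRNA, and 0 of these had the opposite sign. Without MMC replicate 2, 30 higher and 14 lower calls were made.

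The split between higher and lower depended on how the arrays were brought to a common scale. The median difference of all tested miRNAs was -0.04. Scaling by the percentile of all mouse probes moved it to -0.22, with 31 higher and 63 lower calls. Quantile normalisation gave 30 higher and 53 lower calls at a median of -0.18, and the authors' deposited log2 values gave 34 and 58 at -0.23. Scaling by the bright corners gave 16 higher and 2 lower calls at a median of -0.08, and the total signal per miRNA 45 and 14 at 0.01. With no scaling at all the median was 0.93 and there were 158 higher calls and 1 lower call, which was miR-132. The normexp background correction gave 16 higher and 98 lower calls at -0.24. Its offset of 50, once divided by the scale factors, leaves dim miRNAs lower on the brighter MMC arrays. No other offset was tried, and the part of the offset in these counts was not tested.

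**Figure D1:**
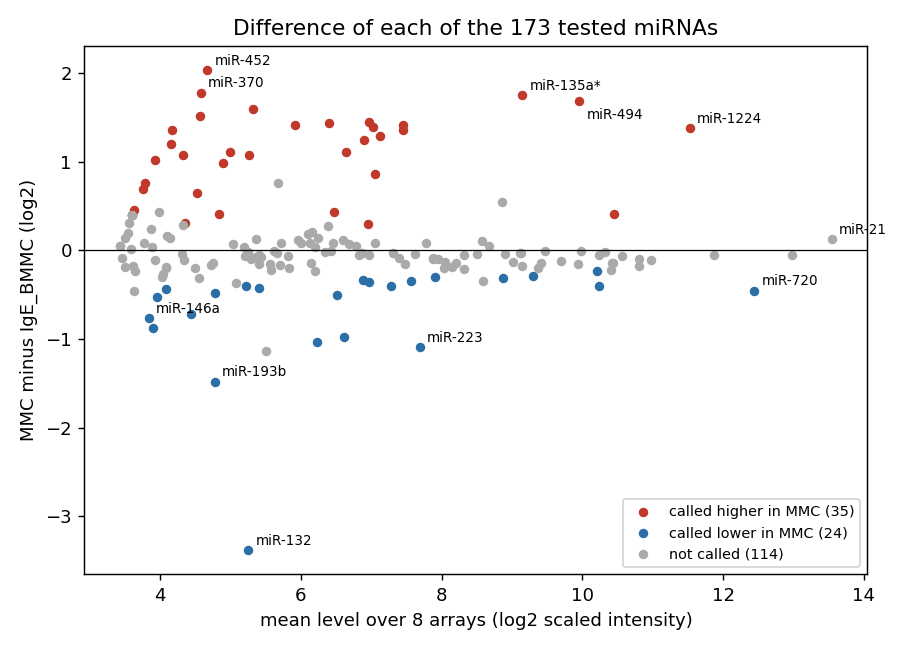
Difference (MMC minus IgE_BMMC, log2) of each of the 173 tested miRNAs against its mean level over the 8 arrays (log2 scaled intensity), 1 point per miRNA. The 35 miRNAs called higher in MMC reach 2.03 (miR-452) and the 24 called lower reach -3.38 (miR-132), while the abundant miR-21 lies at 0.12. Without scaling, miR-132 alone is called lower.

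The miRNAs lower in MMC were led by the miR-132/miR-212 cluster. Both miRNAs come from hairpins close together on chromosome 11 (chr11:75173443-75173464 for miR-212 and chr11:75173723-75173744 for miR-132, plus strand), share the seed AACAGUC, and are known as targets of the activity-dependent transcription factor CREB in neurons. MiR-132 had 11.4, 11.6, 9.51 and 14.0 units on the MMC arrays and 110.1, 107.8, 137.8 and 140.6 units on the IgE_BMMC arrays. The MMC values lay at or just above the floor, and the lowest IgE_BMMC value was far above the highest MMC value. The difference was -3.38 (SE 0.12, adjusted p = 6.8e-08, 10.4-fold lower in MMC), -3.17 on its second probe and -1.52 after normexp, still a call. MiR-212 had 51.9, 57.0, 45.1 and 56.0 units in MMC and 102.1, 90.8, 125.0 and 111.9 units in IgE_BMMC. These groups were also apart, with a difference of -1.03 (SE 0.12, adjusted p = 9.7e-05), which on its second probe was -2.09. Scaled by the bright corners miR-212 differed by a similar -1.06 but had an adjusted p of 0.092, and without scaling its difference was -0.03.

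MiR-193b and miR-365, which are known from brown fat differentiation, were lower too. Their hairpins lie together on chromosome 16 with a further miR-365 copy beside miR-193 on chromosome 11. MiR-193b had 14.1, 16.03, 14.8 and 21.8 units in MMC, against 57.4, 45.0, 37.5 and 45.6 units in IgE_BMMC. Every MMC value was below every IgE_BMMC value, and the difference was -1.48 (SE 0.17, adjusted p = 8.0e-05). MiR-365 had 78.5, 60.6, 76.8 and 63.9 units in MMC, against 142.6, 136.4, 160.4 and 112.0 units in IgE_BMMC (-0.98, SE 0.13, adjusted p = 0.00027, and 0.02 without scaling). MiR-193, with the seed of miR-193b, had a difference of similar size (-1.13) that did not pass (SE 0.41, adjusted p = 0.062). Its values spread from 14.9 to 48.9 units in MMC and from 41.9 to 112.0 units in IgE_BMMC and overlapped. Of the 3 members, 2 were called lower and 0 higher, beside 13.9% lower and 20.2% higher over all tested miRNAs. Their median was -1.13 beside -0.04 (-0.13 beside 0.93 without scaling).

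MiR-223, a miRNA of the myeloid lineage that restrains granulocyte activation, was 2.13-fold lower in MMC. It had 145.9, 136.4, 162.7 and 122.6 units in MMC, against 244.3, 376.1, 335.8 and 265.4 units in IgE_BMMC (log2 -1.09, SE 0.15, adjusted p = 0.0003). The groups did not overlap, and with the bright corners setting the scale the difference was -1.12 at an adjusted p of 0.069.

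Of the 3 NF-kB-responsive miRNAs, 2 were lower in MMC and 1 was not called, beside 13.9% lower over all tested miRNAs. MiR-146a and miR-146b share the seed GAGAACU and are known to target the adaptors Traf6 and Irak1 of Toll-like receptor signalling. MiR-146a had 8.17, 9.11, 12.1 and 8.90 units in MMC, 3 of them under the floor, against 13.6, 21.8, 25.6 and 15.9 units in IgE_BMMC (-0.76, SE 0.18, adjusted p = 0.0099). Its difference was -0.97 with the floor lowered to 1. MiR-146b, which was read far from the floor, had 1046, 1102, 1021 and 1039 units in MMC, against 1361, 1374, 1317 and 1525 units in IgE_BMMC. That difference was small but clear of the spread (-0.40, SE 0.07, adjusted p = 0.0021). MiR-155, which is induced in activated lymphocytes and macrophages, had 72.7, 54.2, 71.6 and 62.1 units in MMC and 63.2, 56.3, 54.7 and 65.1 units in IgE_BMMC, and the groups overlapped (0.12, SE 0.11, adjusted p = 0.48). Scaled by the bright corners, miR-146a (-0.77, adjusted p = 0.36) and miR-146b lost their calls, and without scaling both differences were positive (0.02 and 0.59) but below that setting's median of 0.93.

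**Figure D2:**
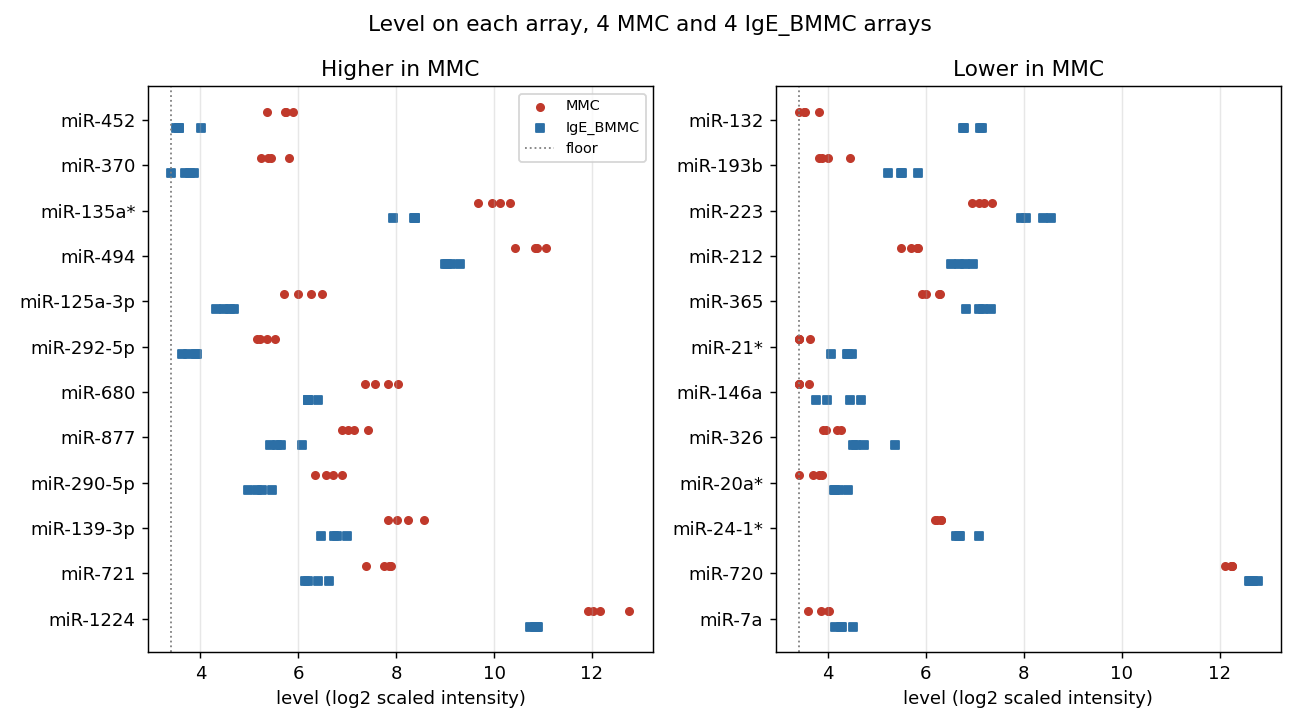
Levels (log2 scaled intensity) of the 12 called miRNAs with the largest differences in each direction whose groups did not overlap, 1 point per array, with the 4 MMC arrays above the 4 IgE_BMMC arrays in each row and the floor as a dotted line. MiR-452 and miR-370 in IgE_BMMC and miR-132, miR-21* and miR-146a in MMC lie at or close to the floor, whereas miR-135a*, miR-494 and miR-1224 lie far above it in both groups. Without scaling, miR-365, miR-146a, miR-20a*, miR-24-1*, miR-720 and miR-7a of the right-hand panel had positive differences.

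The miRNAs of growth and of the mast cell lineage differed little. MiR-21, among the most abundant miRNAs of many cell types and induced by TGF-beta, had 13270, 12180, 11890 and 12560 units in MMC and 11100, 9810, 11590 and 13600 units in IgE_BMMC (0.12, SE 0.10, adjusted p = 0.43). The groups overlapped. MiR-221 and miR-222 come from a cluster on the X chromosome and target the SCF receptor Kit. MiR-221 had 441.1 to 514.8 units in MMC and 441.9 to 523.3 units in IgE_BMMC (-0.04, SE 0.09, adjusted p = 0.75). MiR-222 was called lower (-0.35, SE 0.11, adjusted p = 0.036), with 105.3 to 119.4 units in MMC and 121.7 to 172.5 units in IgE_BMMC. That call ended when any of 6 single arrays was left out, and without scaling the difference was 0.64. MiR-142-3p, a marker of blood cells, had 7201 to 8304 units in MMC and 7712 to 8578 units in IgE_BMMC, with a difference of -0.05.

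The ratio of the strands of a hairpin was taken within each array, so the array's scale factor cancels in it except where a strand lies at the floor. Of 21 such pairs, 3 (14.3%) changed. The largest was miR-21* over miR-21, whose ratio was lower in MMC by 1.0 on the log2 scale (SE 0.14, adjusted p = 0.00067). MiR-21* had 9.89, 12.3, 9.40 and 9.48 units in MMC, 3 of them under the floor, against 21.2, 22.5, 16.7 and 21.1 units in IgE_BMMC, so its difference of -0.88 (SE 0.11, adjusted p = 0.00013) stands beside the 0.12 of miR-21. With the floor at 1 the ratio changed by -1.11, and without scaling, which moves values across the floor, by -1.18. MiR-20a* over miR-20a changed by -0.39 (SE 0.11, adjusted p = 0.033) and miR-24-1* over miR-24 by -0.36 (SE 0.09, adjusted p = 0.029). Without scaling miR-31* over miR-31 was called as well (-0.36, adjusted p = 0.048, against -0.13 with it), and after normexp miR-20a* over miR-20a was not (adjusted p = 0.087). The 2 smaller changes were lost without any single MMC array. Only 1 pair, miR-21* over miR-21, was called without MMC replicate 1, 2 or 4, and 6 pairs were called without IgE_BMMC replicate 3. MiR-21* over miR-21 was called in each of these fits. In all, 18 of the 114 star strands on the array were tested, and 4 were lower and 1 higher (miR-135a*), beside 13.9% lower and 20.2% higher over all tested miRNAs. Their median was -0.11 beside -0.04 (0.80 beside 0.93 without scaling).

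**Figure D3:**
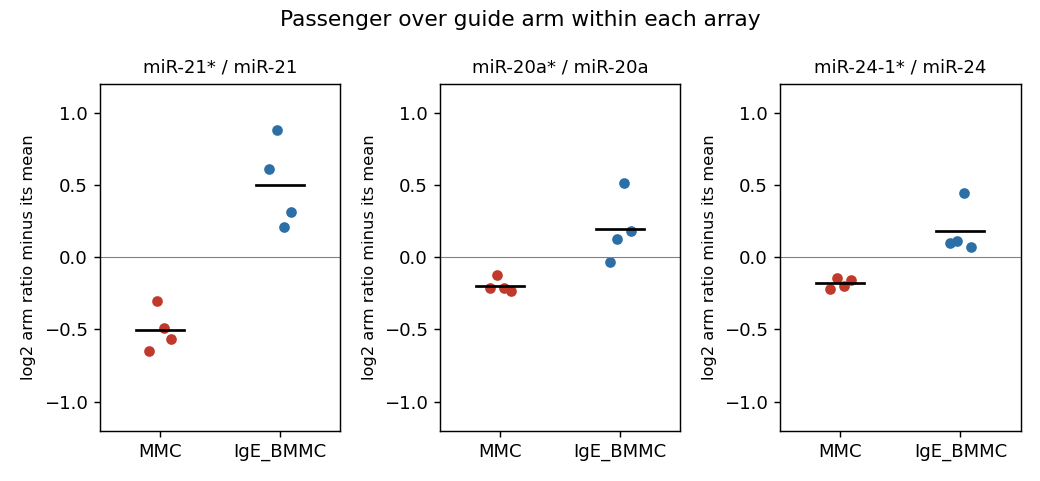
Log2 ratio of the passenger to the guide strand within each array, minus the pair's mean over both groups, with MMC left of IgE_BMMC, 1 point per array and a bar at the group mean. The groups do not overlap in any of the 3 pairs, and the gap is widest for miR-21* over miR-21, with a change of -1.0.

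The miR-17-92 and paralogous clusters, which drive proliferation and block apoptosis in haematopoietic cells, had 6 members lower and 0 higher of 13 tested, beside 13.9% lower and 20.2% higher over all tested miRNAs. Their median was -0.20 beside -0.04 (0.80 beside 0.93 without scaling). Of the 6 tested miRNAs with the seed AAAGUGC, 4 were lower, miR-17 (-0.42), miR-106a (-0.40), miR-20b (-0.34) and miR-93 (-0.34), and the other two, miR-20a and miR-106b, were at -0.14 and -0.10. MiR-106a had 25.7 to 37.9 units in MMC and 39.8 to 46.2 units in IgE_BMMC, without overlap, while miR-20b had 138.0 to 197.9 and 197.2 to 218.4 units in MMC and IgE_BMMC, with a slight overlap. Their adjusted p-values lay between 0.031 and 0.037, and each of the 4 lost its call without at least 4 of the 8 single arrays. The miR-23/27/24 clusters had 3 lower of 7, beside 13.9% over all tested miRNAs (median -0.15 beside -0.04, and 0.85 beside 0.93 without scaling). These were the passenger strands miR-24-1* and miR-24-2*, which share the seed UGCCUAC, and miR-27a. The call of miR-27a ended without any of 5 single arrays and with the replicate block. It also ended with the bright corners, after normexp and with the total signal per miRNA. The let-7 family had 1 of 10 lower, a share near that of all tested miRNAs. This was let-7c (-0.31), whose call ended without any of 6 single arrays and with slide as a block. In the miR-26 family miR-26b was lower and miR-26a was not called. MiR-26b had 584.3, 560.1, 622.4 and 508.0 units in MMC, against 666.4, 690.9, 728.8 and 686.8 units in IgE_BMMC, without overlap (-0.29, SE 0.08, adjusted p = 0.023). Its call ended without any of 3 single arrays, and without scaling its difference was 0.71. The miR-15/16, miR-29 and miR-30 families had 0 called of 6, 5 and 7. MiR-720 and miR-805, which are regarded as fragments of other RNA classes, were both lower, miR-720 with 4406 to 4905 units in MMC and 6234 to 7010 units in IgE_BMMC (-0.46, SE 0.08, adjusted p = 0.0011, and 0.54 without scaling).

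**Figure D4:**
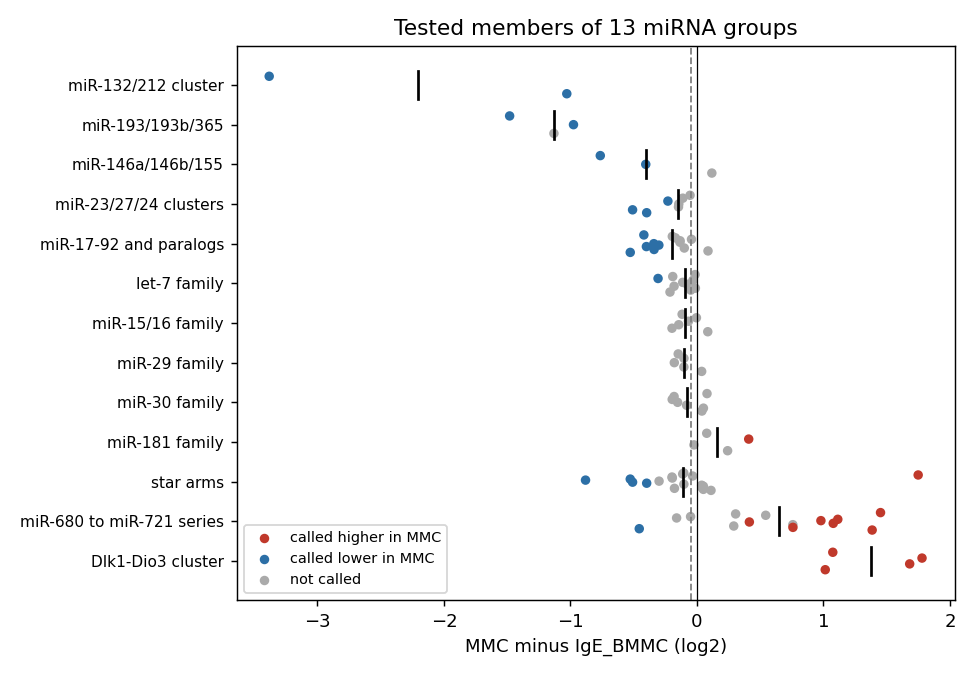
Difference (MMC minus IgE_BMMC, log2) of each tested member of 13 groups of miRNAs, with a bar at the group's median and a dashed line at the median of all 173 tested miRNAs (-0.04). The miR-132/miR-212 cluster sits lowest, with a median of -2.21, and the Dlk1-Dio3 cluster highest, with a median of 1.38. Without scaling the medians are -1.23 and 2.20, those of most other lower groups turn positive, and after normexp the Dlk1-Dio3 median is -0.09.

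Among the miRNAs higher in MMC, the largest difference was that of miR-452, which lies within the span of Gabre, a GABA receptor subunit gene on the X chromosome. It had 53.9, 53.1, 41.3 and 59.7 units in MMC, against 11.7, 11.8, 16.1 and 11.3 units in IgE_BMMC, where it was well above background on 2 of the 4 arrays. It thus entered the test only through the MMC arrays, which favours a higher difference. The difference was 2.03 (SE 0.15, adjusted p = 9.5e-06) and 1.32 on its second probe. After normexp it was 0.16 and not called (adjusted p = 0.21).

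The Dlk1-Dio3 cluster, an imprinted region on chromosome 12 whose maternal copy carries a large set of miRNAs, had 4 members tested. All 4 were higher in MMC, beside 20.2% over all tested miRNAs. Of its 48 miRNAs on the array, 43 were well above background on no array. MiR-494 had 1870, 1822, 1371 and 2140 units in MMC and 513.3, 523.9, 630.9 and 556.9 units in IgE_BMMC (1.68, SE 0.14, adjusted p = 1.7e-05). Its call held under every setting tried. MiR-370, within the span of the long noncoding RNA Rian, had 43.4, 41.8, 37.8 and 56.1 units in MMC and 12.9, 10.4, 14.7 and 13.8 units in IgE_BMMC (1.78, SE 0.14, adjusted p = 1.7e-05, and 0.04 after normexp). MiR-134 (1.07, SE 0.21, adjusted p = 0.0035) was well above background on 4 MMC arrays and 1 IgE_BMMC array. MiR-770-3p, within the span of the long noncoding RNA Meg3, was well above background on 4 MMC arrays and 0 IgE_BMMC arrays, and was at least 1.82-fold higher in MMC (adjusted p = 2.4e-05). MiR-134 and miR-770-3p entered the test only through the MMC arrays, which favours a higher difference, so the count of 4 is a description. The list median was 1.38, beside -0.04 over all tested miRNAs. After normexp miR-134 and miR-770-3p were negative (-0.22 and -0.33).

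MiR-135a*, the passenger strand of a hairpin within the spans of Glyctk and of a long noncoding RNA on chromosome 9, had 1115, 990.4, 817.4 and 1277 units in MMC and 330.1, 331.9, 246.1 and 335.2 units in IgE_BMMC (1.75, SE 0.15, adjusted p = 2.4e-05). MiR-1224, within the span of Vwa5b2, had 4567, 4149, 3893 and 6875 units in MMC and 1831, 1704, 1876 and 1896 units in IgE_BMMC (1.38, SE 0.16, adjusted p = 0.00011). The groups were well apart for both, and MMC replicate 4 had the highest value of each. Neither lost its call under any setting tried.

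MiR-290-5p and miR-292-5p belong to a cluster on chromosome 7 (chr7:3218639-3218660 and chr7:3219200-3219221, plus strand) that is known as the main miRNA cluster of mouse embryonic stem cells, and they share the seed CUCAAAC. MiR-290-5p had 105.2, 94.96, 81.4 and 118.0 units in MMC and 38.0, 31.6, 44.0 and 35.8 units in IgE_BMMC (1.42, SE 0.14, adjusted p = 4.8e-05). MiR-292-5p had 41.0, 37.3, 35.6 and 46.3 units in MMC and 15, 12.4, 15.3 and 13.5 units in IgE_BMMC (1.51, SE 0.11, adjusted p = 9.5e-06). It was well above background on 2 of the IgE_BMMC arrays and so entered the test only through the MMC arrays, which favours a higher difference. After normexp its difference was -0.06.

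Of 14 tested miRNAs from the series miR-680 to miR-721, which came from mouse small RNA cloning, 7 were higher and 1 (miR-720) was lower. Over all tested miRNAs 20.2% were higher and 13.9% lower. The series had a median of 0.65 beside -0.04 (0.57 with miR-718 at its bound, and -0.05 beside -0.24 after normexp). MiR-718 was well above background on 0 IgE_BMMC arrays, so the direction of its call was fixed. MiR-680 had 226.5, 190.3, 164.1 and 264.3 units in MMC and 85.1, 73.1, 73.8 and 73.0 units in IgE_BMMC (1.45, SE 0.14, adjusted p = 4.9e-05). MiR-721, within the span of Cux1, carries the seed AGUGCAA of the miR-130/miR-301 family. Its difference was 1.38 (SE 0.14, adjusted p = 5.8e-05), while 0 of the 4 tested members of that family were called, with differences of 0.05 to 0.28. MiR-762, which holds the most G and C of the sequences above, had 36.3, 25.04, 21.9 and 33.7 units in MMC and 9.98, 9.14, 11.8 and 11.9 units in IgE_BMMC. Of these, 9.98 and 9.14 lay under the floor and the other IgE_BMMC values just above it. The difference of miR-762 was 1.35 (SE 0.16, adjusted p = 0.0001, and -0.20 after normexp). MiR-709, with 1381 to 1830 units in MMC and 1144 to 1339 units in IgE_BMMC, was higher by 0.41 (SE 0.10, adjusted p = 0.010). Its call was lost with the bright corners and with the authors' deposited values.

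Several single miRNAs lay within the spans of protein-coding genes. MiR-877 (Abcf1) had 140.5, 128.5, 119.4 and 172.5 units in MMC and 43.0, 49.97, 67.8 and 47.4 units in IgE_BMMC, a difference of 1.44. MiR-139-3p (Pde2a, a cyclic nucleotide phosphodiesterase) had 301.1, 259.9, 226.7 and 379.8 units in MMC and 106.6, 88.6, 127.8 and 111.0 units in IgE_BMMC, a difference of 1.41. Every MMC value of both exceeded every IgE_BMMC value. MiR-125a-3p (Spaca6), the one tested of 9 miRNAs of the miR-99/100 and miR-125 clusters, was higher by 1.59 (SE 0.16, adjusted p = 5.0e-05), and by 0.24 without a call after normexp. MiR-188-5p and miR-500, both within Clcn5, were higher by 1.29 (adjusted p = 8.0e-05) and 0.43 (adjusted p = 0.0054). For miR-500 a second probe gave 0.05, and its call was lost with the bright corners, after normexp and with the authors' deposited values. The other tested strands of that X chromosome cluster were not called. In the miR-181 family, which acts in lymphocyte development, miR-181b alone of 4 was called (0.41, SE 0.13, adjusted p = 0.034), a call that ended without any of 6 single arrays.

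There were 15 tested miRNAs that were well above background on at least 3 MMC arrays and on 0 IgE_BMMC arrays, and 0 the other way round. Of them 7 were called. Since these miRNAs were measured through the MMC arrays, the direction of a call was fixed, and the count is a description. MiR-878-3p was at least 2.22-fold higher (adjusted p = 0.00099), miR-718 at least 1.5-fold (adjusted p = 0.0010), miR-804 at least 1.44-fold (adjusted p = 0.011) and miR-486 at least 1.22-fold (adjusted p = 0.028). The remaining bounds, for miR-197 and miR-339-3p, were 1.17-fold each. The calls of miR-804, miR-486 and miR-339-3p ended without MMC replicate 1, 2 or 4, and all 7 calls ended with the bright corners. Their levels were low, with 11.3 to 39.9 units in MMC among the named, and the raw MMC arrays were the brighter ones. The part of array brightness in these detections was not tested.

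Markers of other cells were few, apart from the lymphoid list. All 7 epithelial miRNAs on the array were well above background on no array, as were 6 of 7 stromal and endothelial miRNAs, 8 of 11 muscle, liver and neuron miRNAs, and miR-451 and miR-144, which define red cells. The summed level of the 7 epithelial miRNAs was 11 to 16.1 units in MMC and 14.2 to 20.4 units in IgE_BMMC. The erythroid and megakaryocytic list, with miR-486 and miR-150 measured, had 23.1 to 28.4 units in MMC and 20.3 to 27.7 units in IgE_BMMC. The stromal list had 12.1 to 16.3 units in MMC and 10 to 15.2 units in IgE_BMMC. Of the 6 lymphoid miRNAs, 5 were tested and 1 was well above background on no array. The lymphoid list had 161.4 to 173.0 units in MMC and 151.8 to 165.7 units in IgE_BMMC, and its miR-150 had a difference of -0.46 that was not called (adjusted p = 0.060). The arrays hold no mRNA, so the proteases that mark mucosal mast cells could not be checked. In such cultures fewer cells of a type and less RNA per cell cannot be told apart.

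The directions also differed in base composition, which the choice of samples did not use. The filter, however, favoured some of the higher calls. MiR-718, miR-339-3p and miR-770-3p, all with at least 60% G and C, entered the test only through the MMC arrays. So did miR-134, miR-452 and miR-804, among others, so the figures for the higher set are descriptions. The part of the filter in them was not tested. With matched sequence, the 29 miRNAs called higher in MMC had a median of 59.1% G and C bases, the 22 called lower 47.8%, the uncalled 43.5% and all tested 45.6%. For G alone the medians were 40.9%, 24.9%, 23.8% and 27.3% in the same sets. The run GGG, read on the miRNA's own strand with overlaps counted once, stood in 23 of the 29 higher miRNAs (79.3%), in 4 of the 22 lower (18.2%) and in 49 of all 150 (32.7%). Of the sequences above, those of the second set hold it except miR-452, and so do miR-146a and miR-21*, which were lower. Of the 23 miRNAs with at least 60% G and C, 12 were higher and 1 lower (median 0.76), against 0 higher and 3 lower of the 28 under 40% (median -0.10).

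Across the 150 matched miRNAs the difference and the percentage of G and C had a Pearson r of 0.36 and a Spearman rho of 0.30, and for G alone these were 0.48 and 0.35. The miRNAs share arrays and are not independent, so these are descriptions. The slope of an array's log2 deviation per 10 percentage points of G and C was 0.14, 0.09, 0.04 and 0.17 on the MMC arrays, and -0.10, -0.13, -0.09 and -0.14 on the IgE_BMMC arrays. All 4 MMC slopes lay above all 4 IgE_BMMC slopes. The miRNAs called higher had the lower probe signals, with a median level of 5.80 in MMC and 4.63 in IgE_BMMC on the log2 scale, against 6.19 in MMC and 7.0 in IgE_BMMC for those called lower. Among miRNAs of at least 6 in both groups, 5 of the 6 with at least 60% G and C were higher (median 1.33), against 6 higher and 12 lower of the other 72 (median -0.06). The rho was 0.30 within slide 1, 0.33 within slide 2 and 0.01 after normexp. The first probe listed for a miRNA also differed in the span of its coordinates in the files. The median span was 13 bases for the miRNAs called higher and 17 for those called lower. It was 18 for the uncalled and 17 for all tested. The part of probe span, labelling, hybridisation or array brightness in this pattern was not tested.

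**Figure D5:**
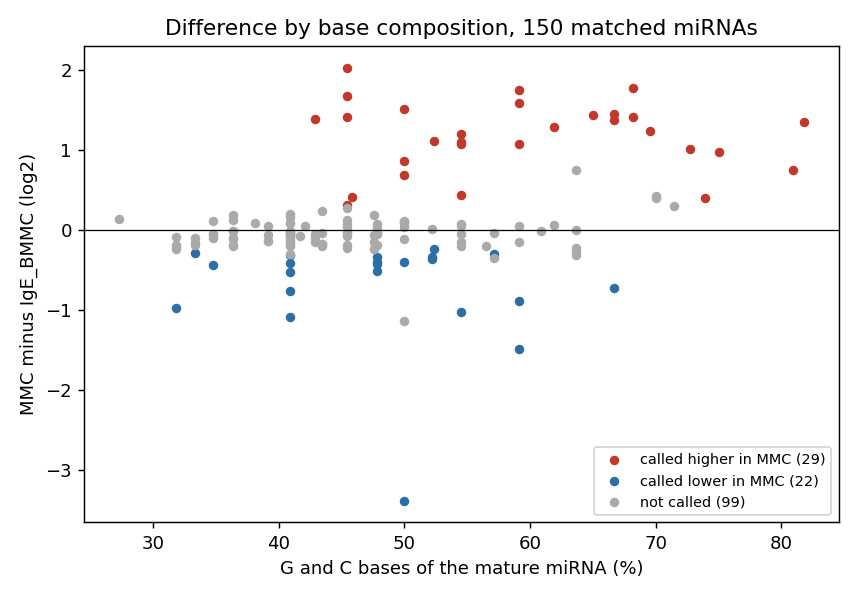
Difference (MMC minus IgE_BMMC, log2) against the percentage of G and C bases in the mature sequence, 1 point for each of the 150 tested miRNAs with a RefSeq sequence. The 29 miRNAs called higher have a median of 59.1% and the 22 called lower 47.8%. Some of those called higher entered the test only through the MMC arrays, which favours a higher difference. The rho of 0.30 is 0.21 without scaling and 0.01 after normexp.

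Among calls with matched sequence, the 29 higher miRNAs held 28 distinct seeds and the 22 lower ones 16, and 0 seeds were shared between directions. Distinct seeds over all 150 matched miRNAs were not counted, so these numbers are descriptions.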

How the data were processed

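Small RNA of 4 MMC and 4 IgE_BMMC samples was read on 1-colour Agilent miRNA arrays with 12493 spots each. Per the file headers, the authors used Agilent Feature Extraction 9.5.1.1. The deposited signals are linear intensity values from which that software subtracted a background, and the arrays were not scaled to each other. The authors also deposited a value table in log2 units, with array medians from -0.25 to 0.82. Between MMC replicate 1 and IgE_BMMC replicate 1, the only arrays compared, its differences followed those of the total signal per miRNA up to a constant. The table served as an alternative. No source used here gives its centring.

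Probe values were means over their spots, leaving out controls and outliers. Each array was divided by its 75th percentile over the 283 probes well above background on all 8 arrays. Values under a floor of 10.6 (the 1st percentile of such probes, median over arrays) were set to it before log2, and each miRNA was represented by its brightest probe. Tested were miRNAs well above background on 3 or more arrays of either group. A miRNA that passed through 1 group alone was thereby favoured to be higher in that group. limma 3.58.1 in R 4.3.3 compared the groups (6 residual and 3.22 prior degrees of freedom), with Benjamini-Hochberg adjustment over the 173 tested and calls at an adjusted p under 0.05. Values are MMC minus IgE_BMMC with the model's standard error (SE). A miRNA well above background on no array of a group got a lower bound instead of a fold, the mean of the bright group against the higher, per array, of its own signal and the lowest signal among probes well above background. The fit was tested on simulated data. For strands of a hairpin the same fit was made on their log2 ratio, adjusted over 21 pairs.

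The text names, in part, the 12 largest differences each way among calls with groups that do not overlap, 16 fixed miRNAs, the tested members of each of 33 lists with the smallest adjusted p (at most 4), and miRNAs well above background in 1 group. MiR-17, miR-20a, miR-20b, miR-106b, miR-188-5p, miR-500, miR-709 and miR-762, outside that rule, were chosen after their values were seen. The members and lists were chosen with earlier results of these data known. Each call within a list is counted in a list described, and the other lists had 0 calls of their own. Old array names were matched to RefSeq by name and strand, and 148 of 150 matches lie on the chromosome the files give. The deposited files' header names build mm9, and printed coordinates are those of GRCm38.p6.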

Additional observations from a re-analysis of the deposited data

Results flagged for a closer look

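In 126 checks of 4 arrays each, an array was marked when its gap to the nearest other exceeded Dixon's critical share of the group's range, which chance does in about 1 in 20 groups. MMC replicate 2 read 3.62 for miR-21* and MMC replicate 3 read 3.60 for miR-146a (log2 level), while the other 3 MMC arrays of each sat at the floor of 3.40. Among the IgE_BMMC arrays, miR-770-3p read 3.49 on replicate 4 with the others at the floor, and miR-878-3p sat at the floor, 3.40, on replicate 1 with the others at 3.59 to 3.62. For miR-21*, miR-146a and miR-770-3p the floor fixed the mark, since any value above 3 equal ones is marked. The rate of 1 in 20 does not apply to them. IgE_BMMC replicate 3 stood apart in 4 values. It read 4.01 for miR-452 (others 3.50 to 3.56), 7.94 for miR-135a* (others 8.37 to 8.39), 7.09 for miR-24-1* (others 6.62 to 6.69) and -3.47 for the log2 ratio of miR-24-1* to miR-24 (others -3.85 to -3.80). Without that array, the ratio's change was -0.27 (adjusted p = 0.0019, limma). IgE_BMMC replicate 1 read 6.41 for miR-680 (others 6.19 to 6.21) and IgE_BMMC replicate 2 read 7.62 for miR-20b (others 7.76 to 7.77).

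Outside the mouse miRNAs, the viral miRNA mghv-miR-M1-2 of a mouse herpesvirus was well above background on all 8 arrays, 4 MMC and 4 IgE_BMMC. The arrays have no sample without RNA to set this against.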

How the results depend on the processing

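The 47 called miRNAs that the text names kept their direction whichever array was left out, and 34 kept their call each time. Only 10 of the 47 kept call and direction under every other setting tried, and 31 lost their call with the bright corners. The fits without 1 array gave 44 to 58 calls, 30 to 37 higher and 14 to 24 lower. The lowest count of lower calls was without MMC replicate 2. They gave 21.6 to 28.25 for the difference in miRNAs above background, with an exact permutation p of 0.0286 for all 8 arrays, and 1 to 6 for the changed strand ratios (1 without MMC replicate 1, 2 or 4). The rho of the difference with G and C ran from 0.28 to 0.33.

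The total of 59 calls became 94 with the percentile of all probes (63 lower), 159 without scaling (158 higher, 1 lower), 18 with the bright corners (16 higher, 2 lower), 114 after normexp (16 higher, 98 lower) and 92 in the deposited value table (58 lower). Quantile normalisation gave 53 lower calls and the total signal 14. After normexp 12 strand ratios changed, with the deposited log2 values 5, and the rho was 0.011. For normexp the offset, divided by unequal scale factors, moves dim miRNAs by construction, and its part in these changes was not tested. For the others the cause was not tested.

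Without scaling, where the median of all tested was 0.93, these turned positive: miR-365 (0.022), miR-146a (0.024), miR-20a* (0.42), miR-24-1* (0.49), miR-7a (0.51), miR-805 (0.52), miR-720 (0.54), miR-17 (0.58), miR-146b (0.59), miR-24-2* (0.60), miR-106a (0.60), miR-222 (0.64), miR-20b (0.66), miR-93 (0.66), let-7c (0.69), miR-26b (0.71), miR-27a (0.77), miR-24 (0.85), miR-20a (0.86), miR-106b (0.90), miR-142-3p (0.95) and miR-221 (0.96). After normexp these turned negative: miR-292-5p (-0.055), miR-804 (-0.19), miR-762 (-0.20), miR-134 (-0.22), miR-339-3p (-0.24), miR-718 (-0.25), miR-155 (-0.26), miR-878-3p (-0.26), miR-197 (-0.26), miR-486 (-0.27), miR-770-3p (-0.33) and miR-181b (-0.35).

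With the replicate block, 61 miRNAs were called, 38 higher and 23 lower, and 3 strand ratios changed. With slide as a block 60 were called, and of the miRNAs the text names let-7c lost its call. Under the replicate block, miR-222 and miR-27a lost theirs. The numbers were not taken to pair the samples: the labels tie them to no shared source, and same-numbered samples correlated in their deviations at 0.49, 0.22 and 0.23 for replicates 1, 3 and 4 but at 0.04 for replicate 2. Replicates 1, 3 and 4 deviated most like their own number, and replicate 2 like replicate 3. Within slide 1 miR-193b differed by -1.82 and within slide 2 by -1.14. Signal over background limits the miRNAs at the floor, and 4 arrays per group limit the precision.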
